A study of Homo sapiens with 4 samples.

Results

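The epidermal differentiation complex and its flanking S100 genes lie side by side on chromosome 1, and the H3K4me3 peaks over them are described here in MDA-MB-231 cells with ARID1A knocked out and in their control. The members were all peaks of either deposited list that overlapped hg19 positions 151955000 to 153615000 of chromosome 1, a region of 1.66 Mb. There were 22 such peaks among the 23588 peaks of the knockout list and 22 among the 36677 of the control list, 44 of 60265 in all. The region was described in 3 stretches, the end with S100A10 and S100A11 (to 152020000), the middle with the FLG, LCE and SPRR genes (152020000 to 153300000) and the S100A cluster (from 153300000). A peak was placed in a stretch by its midpoint. The region is set by positions and not by a measured value, though it was chosen with earlier results of these data known.

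MDA-MB-231 is an established triple-negative breast cancer line, and ARID1A belongs to the BAF form of SWI/SNF, a complex that moves nucleosomes. Chromatin was cut with micrococcal nuclease, immunoprecipitated for trimethylated lysine 4 of histone H3 (H3K4me3) and sequenced, and an input library was made for each genotype. The ARID1A knockout IP held 13391724 tags (aligned reads) against 17890122 in its input, and the control IP held 27748061 tags against 14878873 in its input. There was 1 library of each kind, so no difference between the genotypes has a replicate check, no test of the genotype was possible, and the intervals below cover counting error only. The labels do not say whether the knockout is a single clone or a pool, and they give no treatment. The knockout list's header names its library K6, which no label carries, so the list was tied to the knockout by the name of its file alone. The cell line labels of 3 of the 4 libraries end in other numbers than the series title, and the inputs carry IgG as their antibody. The loss of ARID1A itself was not checked here.

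Genes of the epidermal differentiation complex encode the proteins of the cornified envelope, the tough layer that keratinocytes build as they become skin. Filaggrin (FLG), one of the fused-type S100 proteins, bundles keratin. Involucrin (IVL), loricrin, the small proline-rich (SPRR) and the late cornified envelope (LCE) proteins are cross-linked into the envelope. These genes are known for their activity in differentiating epidermis. The S100 proteins on either side are small calcium-binding proteins of the EF-hand type. S100A10 is the partner of annexin A2, S100A4 is known for its link to metastasis, S100A6 (calcyclin) is found in many cell types, S100A8 and S100A9 together form calprotectin of neutrophils, and S100A7 is psoriasin. H3K4me3 marks mainly promoters that are active or poised, and in mammals it is found above all at promoters rich in CG dinucleotides.

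RefSeq lists 94 genes from S100A10 to S100A1, of which 63 are protein-coding. They run in the order S100A10, S100A11, the fused-type genes with FLG, the LCE genes, IVL, the SPRR genes, loricrin, PGLYRP3 and PGLYRP4, then S100A9, S100A12, S100A8, S100A7A and S100A7, and last S100A6, S100A5, S100A4, S100A3, S100A2, S100A16, S100A14 and S100A13 with S100A1. That table is of another build (GRCh38.p14) than the peaks, so it was used for names and order alone. No hg19 annotation was used, and no peak was assigned to a gene: genes are named below only by the stretch that holds them. For the same reason the gene content of the stretches was not checked against the data.

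The promoters of the region fall into distinct kinds of sequence, and 6 of them are shown here to make this visible, chosen after their values were seen. Each is the RefSeq (GRCh38.p14) sequence from 250 bases before to 50 bases after a gene's start, 5′ to 3′ on the gene's strand, with CG dinucleotides in capitals. S100A10 lies at chr1:151993810-151994109 (minus strand), S100A11 at chr1:152036955-152037254 (minus), S100A6 at chr1:153535942-153536241 (minus), FLG at chr1:152325190-152325489 (minus), IVL at chr1:152908296-152908595 (plus) and S100A9 at chr1:153357604-153357903 (plus). These GRCh38 positions cannot be set beside the hg19 positions of the peaks.
S100A10: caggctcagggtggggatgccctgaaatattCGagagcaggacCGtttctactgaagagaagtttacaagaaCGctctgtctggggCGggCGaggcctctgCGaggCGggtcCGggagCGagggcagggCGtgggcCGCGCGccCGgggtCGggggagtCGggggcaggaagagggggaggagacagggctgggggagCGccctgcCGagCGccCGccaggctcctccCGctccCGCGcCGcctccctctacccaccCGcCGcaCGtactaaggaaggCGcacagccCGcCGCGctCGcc
S100A11: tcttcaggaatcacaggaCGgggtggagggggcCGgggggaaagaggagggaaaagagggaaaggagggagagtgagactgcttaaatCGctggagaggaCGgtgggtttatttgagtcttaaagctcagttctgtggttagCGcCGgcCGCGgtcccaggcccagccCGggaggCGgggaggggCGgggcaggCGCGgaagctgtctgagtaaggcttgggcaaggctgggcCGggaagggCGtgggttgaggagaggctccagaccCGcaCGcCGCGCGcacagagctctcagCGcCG
S100A6: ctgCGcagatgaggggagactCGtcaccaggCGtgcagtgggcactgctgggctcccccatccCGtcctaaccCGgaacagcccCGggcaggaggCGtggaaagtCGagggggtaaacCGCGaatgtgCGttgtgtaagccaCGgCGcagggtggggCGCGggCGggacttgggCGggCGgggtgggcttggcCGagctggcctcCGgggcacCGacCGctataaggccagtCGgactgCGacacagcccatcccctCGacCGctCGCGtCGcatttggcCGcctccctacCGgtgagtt
FLG: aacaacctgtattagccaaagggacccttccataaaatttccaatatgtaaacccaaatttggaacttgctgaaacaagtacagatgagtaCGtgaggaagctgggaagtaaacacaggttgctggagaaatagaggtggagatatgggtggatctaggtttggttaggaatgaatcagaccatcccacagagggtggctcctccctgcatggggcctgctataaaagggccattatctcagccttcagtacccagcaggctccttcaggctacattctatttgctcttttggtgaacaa
IVL: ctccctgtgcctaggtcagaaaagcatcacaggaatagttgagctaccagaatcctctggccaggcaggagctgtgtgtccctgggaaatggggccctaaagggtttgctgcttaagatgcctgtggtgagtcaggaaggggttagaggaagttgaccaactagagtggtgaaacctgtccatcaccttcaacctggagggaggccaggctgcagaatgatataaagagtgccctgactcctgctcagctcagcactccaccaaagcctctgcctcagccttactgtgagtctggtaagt
S100A9: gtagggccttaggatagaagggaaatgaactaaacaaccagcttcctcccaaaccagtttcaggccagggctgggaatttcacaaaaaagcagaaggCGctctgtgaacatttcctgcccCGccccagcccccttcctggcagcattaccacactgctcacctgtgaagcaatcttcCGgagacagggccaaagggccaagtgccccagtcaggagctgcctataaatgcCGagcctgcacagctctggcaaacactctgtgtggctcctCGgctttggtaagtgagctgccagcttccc

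S100A10 has 32 CG dinucleotides in this window, S100A6 has 31 and S100A11 has 22. FLG has 1, IVL has 0 and S100A9 has 5. Of the 60 genes listed by role, 56 had a promoter in the table (LCE1B, SPRR2D, SPRR2E and S100A7L2 are named only), and where a gene had several the one with the most CG dinucleotides was taken. The epidermal genes of the list that had a promoter were CG-poor (CRCT1, KPLCE, LCE7A and SPRR5 were not on the list). The median was 1 CG dinucleotide over the 7 fused-type genes, 3 over 17 LCE genes, 1.5 over 8 SPRR genes and 2 over the other 6 envelope genes, against 16 over all 27305 genes in the table. None of these promoters had more than 6.

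Among the S100A genes, S100A7, S100A7A, S100A8, S100A9 and S100A12 had a median of 3 CG dinucleotides. The other 9 S100A genes had a median of 6 and ranged from 5 to 31, with S100A13 second to S100A6 at 19. Only S100A10, S100A11 and S100A6, 3 of the 56, had 20 or more, which 44.7% of all promoters reach. The motif TATAAA, searched on both strands, was present in 5 of 7 fused-type, 7 of 8 SPRR, 8 of 17 LCE and in 4 of the 5 promoters of S100A7, S100A7A, S100A8, S100A9 and S100A12. It was in 3 of the 6 other envelope promoters and in 1 of the other 9 S100A promoters. Neither S100A10 nor S100A11 had it, nor did PGLYRP3 and PGLYRP4, which had 2 and 3 CG dinucleotides. In all, 28 of the 56 promoters had the motif, against 11.5% of all promoters of the same length. A match is a description of letters and not a binding site.

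**Figure D1:**
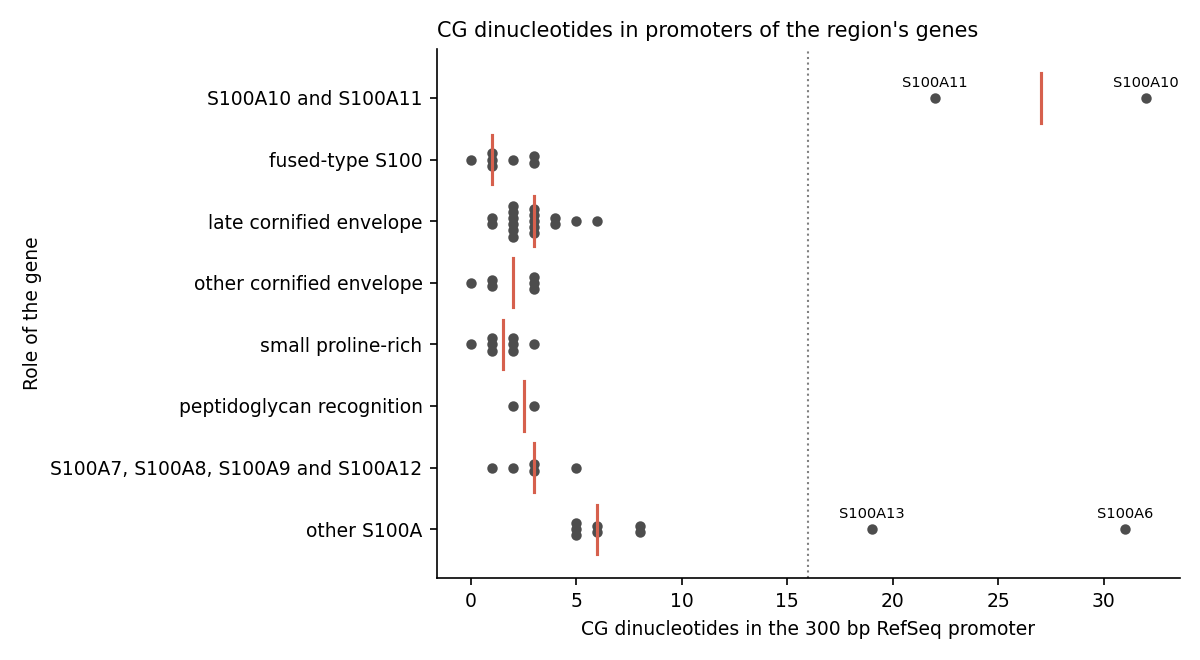
CG dinucleotides in the 300 bp RefSeq promoter of each gene (points), by role, with the median of each role (red bar) and of all 27305 genes (dotted line at 16). S100A10, S100A6, S100A11 and S100A13 stand to the right of the dotted line, and every fused-type, LCE and SPRR promoter lies at 6 or fewer.

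Peaks were denser at either end of the region than between, in both lists. The S100A10 and S100A11 end, 65 kb long, held 4 knockout and 5 control peaks. The middle, 1.28 Mb long, held 9 knockout and 8 control peaks, which is 7.03 and 6.25 per Mb. The S100A cluster, 315 kb long, held 9 knockout and 9 control peaks, or 28.6 per Mb in each list. Along chromosomes 1 to 22 and X, windows of the same length as the middle had a median of 7 knockout and 13 control peaks. Fewer peaks than the middle were found in 57.9% of these 2360 windows for the knockout list and in 34.0% for the control list. Both ends were denser than most windows of their length. Fewer peaks than the S100A10 and S100A11 end were found in 97.8% of windows for the knockout list and 98.4% for the control list. For the S100A cluster the shares were 94.7% for the knockout list and 86.4% for the control list. The median window of 65 kb held 0 peaks in each list, and the median window of 315 kb held 1 knockout and 3 control peaks. Windows were not matched for genes and include any gaps of the assembly. The middle was above the median window in the knockout list and below it in the control list.

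**Figure D2:**
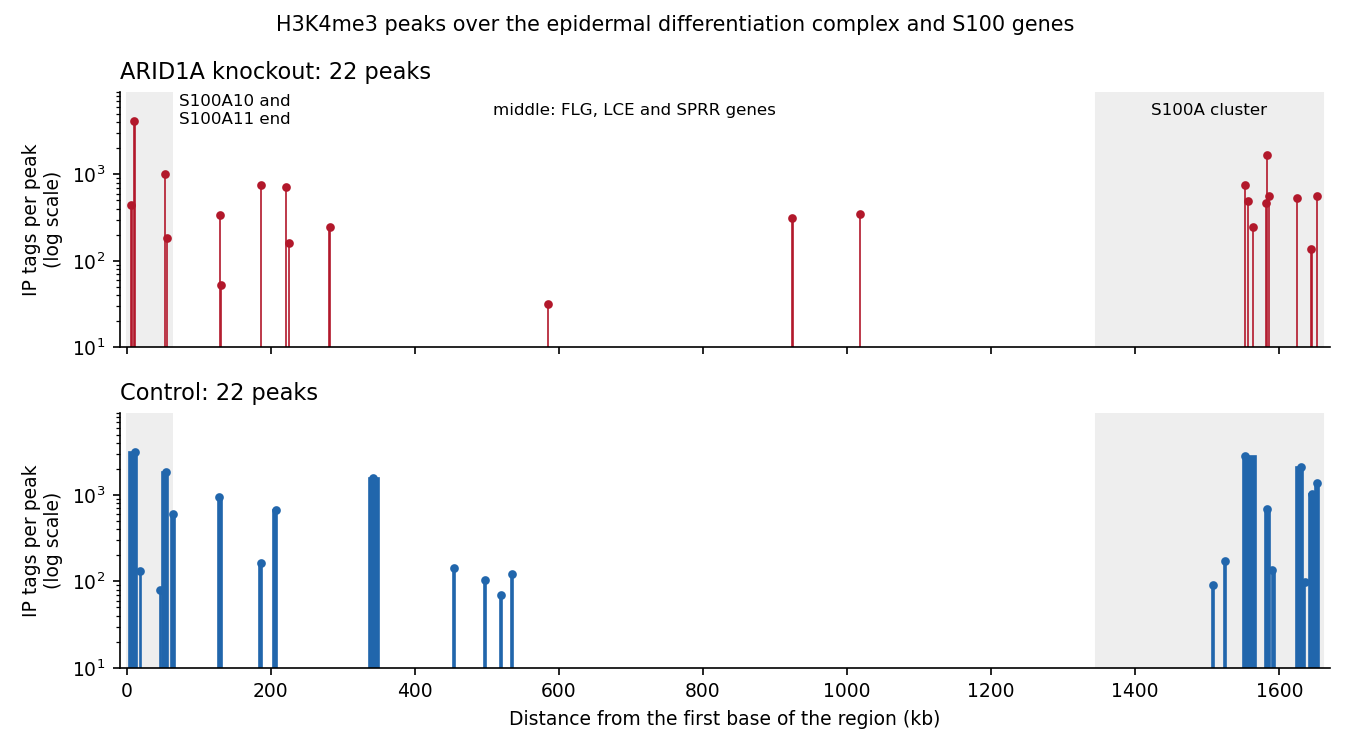
IP tags per peak (log scale, from 10) along the region, in kb from its first base, in ARID1A knockout (top, red) and control (bottom, blue) cells. Bars span the peak's width and dots mark summits. Grey bands mark the S100A10 and S100A11 end and the S100A cluster. The knockout list has 3 lone peaks in the right part of the middle, where the control list has none.

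Within the region the knockout peaks were narrow and the control peaks broad, and so were those of the whole lists. The median width was 300 bp for the 22 knockout peaks and 4883 bp for the 22 control peaks, against 300 and 2968 bp over the whole lists. Exactly 300 bp, the fragment length the peak caller assumed, was the width of 13 knockout peaks (59.1%, against 55.0% of the whole knockout list) and of 0 control peaks. Knockout peaks covered 10276 bp (0.619% of the region) and control peaks 128983 bp (7.77%). Control domains of at least 10 kb numbered 3 of 22, 1 in each stretch, against 2.94% of the whole control list. The false discovery rate that MACS gave was above 1% for 1 knockout and 10 control peaks. The median tag count per peak was 452 in the knockout list and 387.5 in the control list, where the whole lists had 419 and 168.

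The region took nearly the same share of the tags in peaks in each genotype. Its knockout peaks held 14129 tags (exact Poisson 95% interval 13897 to 14364), or 0.106% of all knockout tags in peaks. Its control peaks held 18209 (17946 to 18475), or 0.106% of all control tags in peaks. As a share of all IP tags the region held 0.106% in the knockout and 0.0656% in the control, and the whole lists held 99.4% of the knockout and 62.1% of the control IP tags. The libraries thus differ in how much of the IP lies in peaks. Nearly all knockout IP tags lay in peaks, though the whole knockout list covers 10333 kb against 139198 kb for the control list. What this comes from was not tested, nor was its part in the tag counts, shares, lone peaks and ratios given here. The 3 stretches divided the shares of tags in peaks differently. The S100A10 and S100A11 end held 0.0433% of the knockout and 0.0339% of the control tags in peaks, the middle 0.0223% and 0.0222%, and the S100A cluster 0.0406% and 0.0496%. A single peak held 4138 of the 5764 knockout tags of the S100A10 and S100A11 end, which is 29.3% of the region's, and the region had 9991 knockout tags without it.

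**Figure D3:**
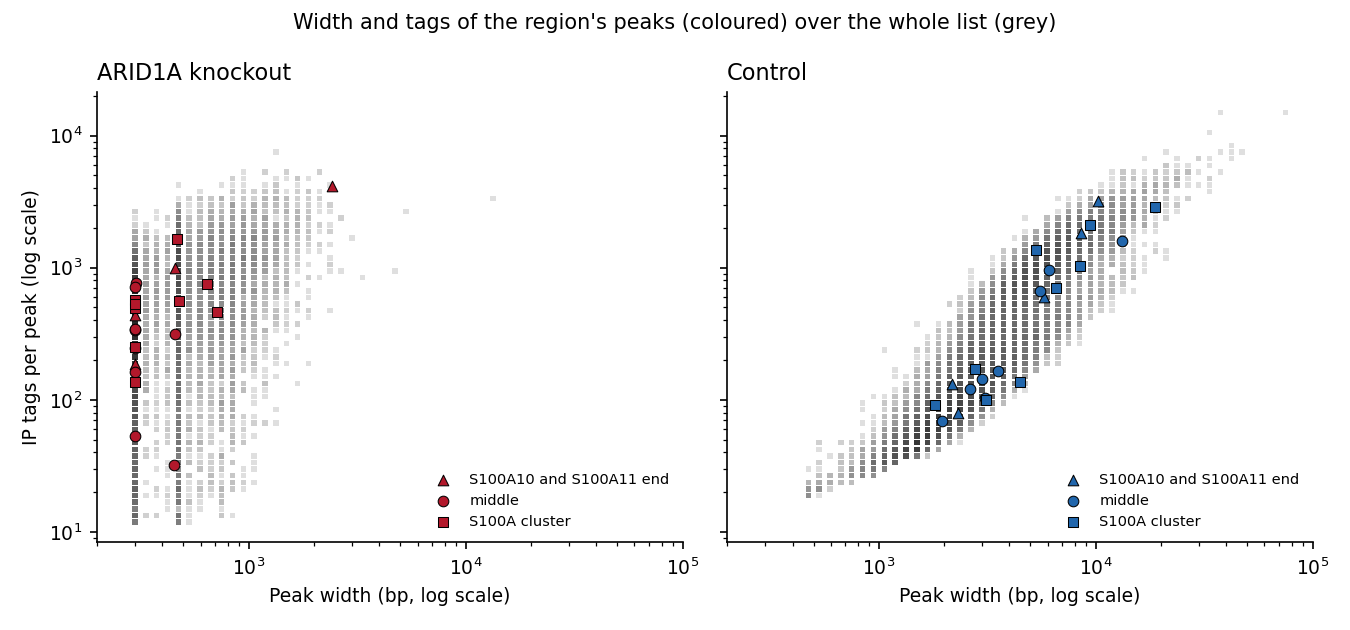
Width in bp and IP tags of each peak of the region, both on log scales, in ARID1A knockout (left, red) and control (right, blue) cells, over the whole list of each (grey, darker where more peaks lie). Symbols mark the 3 stretches. Most knockout peaks of the region stack at 300 bp, and the triangle at 2414 bp and 4138 tags lies at the edge of the knockout list.

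An overlap of 1 bp or more with a control peak was seen for 16 of 22 knockout peaks (72.7%, exact Clopper-Pearson 95% interval 49.8 to 89.3%), against 60.3% of the whole knockout list, which lies within that interval. By stretch the counts were as follows, and the difference between stretches was not tested. All 4 knockout peaks of the S100A10 and S100A11 end (39.8 to 100%) and all 9 of the S100A cluster (66.4 to 100%) lay in a control domain. In the middle it was 3 of 9 (33.3%, 7.49 to 70.1%). The share of the whole knockout list lies within the intervals of the middle and of the S100A10 and S100A11 end. It lies below that of the S100A cluster. The 9 knockout peaks there lie in 5 control domains and are not independent, so no excess is read from that interval. Control peaks covered 40.6% of the S100A10 and S100A11 end, 3.05% of the middle and 19.3% of the S100A cluster. The part of this coverage in the shares was not tested. From the control side, 9 of 22 domains held a knockout peak (40.9%, 20.7 to 63.6%), against 28.4% of the whole control list, also within the interval. These were 2 of 5 domains at the S100A10 and S100A11 end, 2 of 8 in the middle and 5 of 9 in the S100A cluster.

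As in the whole control list, the domains with a knockout peak were the stronger ones. Their median was 1367 tags over 8494 bp, against 132 tags over 2979 bp for the 13 without, and they held 77.9% of the control tags of the region. Over the whole list the medians were 921 and 110 tags. In the S100A cluster these classes did not overlap: the 5 domains with a knockout peak held 697 to 2858 tags and the 4 without held 92 to 172. Over the whole control list the classes overlapped widely, with 26 to 15546 tags for domains with a knockout peak and 18 to 5524 for those without. The split in the cluster rests on few domains and was not tested. In the middle the classes overlapped too: the 2 domains with a knockout peak held 164 and 959 tags, and the 6 without held 69 to 1596.

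At the S100A10 and S100A11 end the mark was concentrated in a pair of domains, and the knockout list had its highest peak there. The peak from 151964590 to 151967003 spanned 2414 bp with 4138 tags (4013 to 4266). It ranked 13th in width and 22nd in tags among the 23588 knockout peaks, and it was the only knockout peak of the region of 1 kb or more, a width that 3.78% of the knockout list reached. It lay in the control domain from 151958434 to 151968708, which spanned 10275 bp with 3193 tags (3083 to 3306), the most of any control peak in the region. A second knockout peak in that domain, from 151961412 to 151961711, held 441 tags over 300 bp. Together the knockout peaks lay over 26.4% of the domain's width, the highest share among the 9 domains. The next highest was 22.5%, for the domain from 153535692, and the lowest was 3.18%.

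The next domain of this end also held 2 knockout peaks, over 8.87% of its width. It ran from 152003554 to 152012068 with 1830 control tags over 8515 bp. Its knockout peaks, from 152008351 to 152008805 and from 152010575 to 152010874, held 1000 and 185 tags. The highest knockout peaks of these 2 domains had summits 42954 bp apart, and the control summits were 43157 bp apart. The knockout summits lay 388 and 591 bp below the control summits in position.

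The remaining control peaks of this end were weak, apart from the last. One held 132 tags (151972788 to 151974967) and one 79 tags (152000856 to 152003181), at false discovery rates of 1.41% and 3.55%. The last, from 152016897 to 152022688, crossed the boundary at 152020000 and held 603 tags over 5792 bp. No knockout peak met any of these, and the nearest was between 5170 and 6023 bp away.

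**Figure D4:**
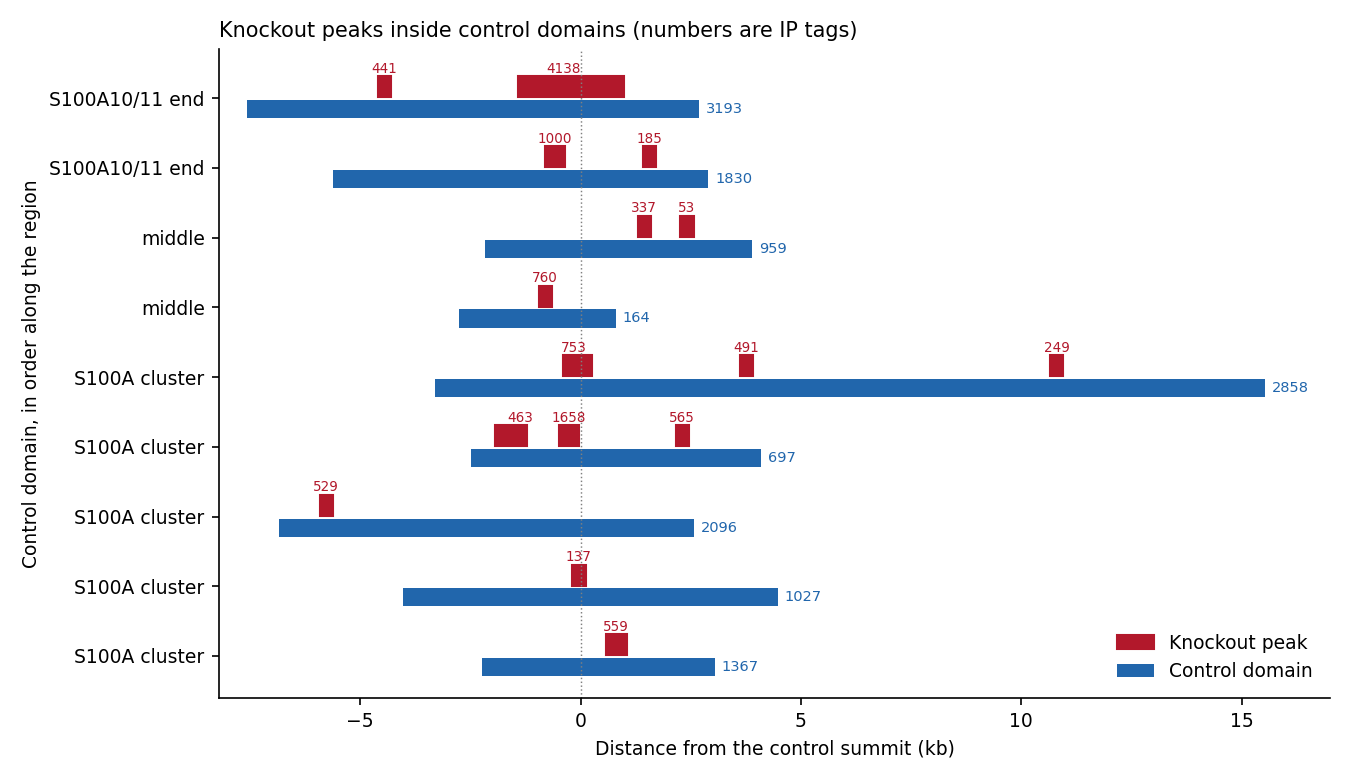
The 9 control domains of the region that held a knockout peak (blue bars), aligned on the control summit (dotted line), with the knockout peaks inside them (red). The x axis is the distance from the control summit in kb, rows run along the region from top to bottom, and numbers are IP tags. Each red bar covers a small part of its blue bar, and 4 of the 16 knockout summits lie within 0.5 kb of the dotted line.

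In the middle, with the FLG, LCE and SPRR genes, the strongest control domain and several knockout peaks had no counterpart in the other list. The widest control domain of the stretch ran from 152291400 to 152304662 and held 1596 tags (1519 to 1676) over 13263 bp, more tags than 93.9% of the control list. It held no knockout peak, and the nearest lay 54628 bp away. Among the 26250 control peaks without a knockout peak it ranked 35th in width and 271st in tags, and 168 of these were 10 kb or wider. A second domain without a knockout peak ran from 152158523 to 152164068 with 670 tags over 5546 bp.

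A further 4 control peaks of the middle lay close together and were weak. In order of position they held 144 tags (152407946 to 152410924), 104 tags (152450592 to 152453662), 69 tags (152473858 to 152475806) and 121 tags (152488496 to 152491115). Their false discovery rates were 0.86%, 22.7%, 6.86% and 1.45%, so 1 of the 4 would be kept at a limit of 1%. They had 33.9 to 48.3 tags per kb, where the domain of 13263 bp had 120 tags per kb.

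Beyond them came a long stretch with no control peak at all. No control peak lay from 152491116 to 153462161, a span of 971046 bp or 58.5% of the region, which reaches past the boundary at 153300000 into the S100A cluster. It was the 18th longest among the 3709 spans between control peaks on chromosome 1, a count that includes any gaps of the assembly. In this span the knockout list had 3 peaks, with 693 tags together. The peak from 152539126 to 152539576 held 32 tags (21.9 to 45.2), the next, from 152878934 to 152879388, held 315 (281 to 352), and the last, from 152972850 to 152973149, held 346 (310 to 384). The first was the weakest knockout peak of the region and the only one with a false discovery rate above 1% (1.61%). The other two were 387819 and 481735 bp from the nearest control peak.

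The other knockout peaks outside control domains lay in the first part of the middle. The peak from 152176167 to 152176466 held 710 tags (659 to 764) in 300 bp, more than 72.3% of the knockout list, and lay 12099 bp from the nearest control peak. A peak from 152180259 to 152180558 held 161 tags and one from 152236473 to 152236772 held 247. The 6 knockout peaks without a control peak had a median of 281 tags and the 16 with one had a median of 510, where the whole list had 336 and 482.

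Only 2 control domains of the middle held knockout peaks. The domain from 152081314 to 152087381, with 959 control tags over 6068 bp, held knockout peaks of 337 and 53 tags, from 152084779 to 152085078 and from 152085754 to 152086053. Both lay above its summit in position, at 1441 and 2416 bp. The control peak from 152138941 to 152142498 was weak, with 164 tags (140 to 191) over 3558 bp. The knockout peak inside it, from 152140737 to 152141037, held 760 tags (707 to 816) in 301 bp and was the strongest of the middle.

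The S100A cluster began with a part without peaks and ended in a block of strong control domains with gaps between them. Its first 162162 bp held no peak of either list, and the first knockout peak began 207123 bp in. Together with the end of the middle this made a span of 489012 bp, from 152973150 to 153462161, without a peak in either list, the longest in the region. Then 2 weak control peaks followed without a knockout peak, one of 92 tags (153462162 to 153463978) and one of 172 tags (153478514 to 153481287).

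From 153504216 on, 7 control peaks filled 53.3% of a span of 105595 bp, and all 9 knockout peaks of the cluster lay in that span, where they covered 3.60%. The knockout peaks held 5404 tags and the control peaks 8281. The block opened with the widest control domain of the region, from 153504216 to 153523057, which spanned 18842 bp with 2858 tags (2754 to 2965) and ranked 103rd in width in the control list. It held 3 knockout peaks, of 753, 491 and 249 tags, from 153507123 to 153507766, from 153511134 to 153511433 and from 153518172 to 153518471. The strongest of these had its summit 165 bp from the control summit, and the others lay 3767 and 10805 bp above it.

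The second domain of the block held the most knockout tags of the cluster. It ran from 153535692 to 153542282 with 697 control tags (646 to 751) over 6591 bp and held knockout peaks of 463, 1658 and 565 tags. They lay from 153536241 to 153536955, from 153537678 to 153538143 and from 153540333 to 153540632. The peak of 1658 tags (1579 to 1740) was the second highest knockout peak of the region, had more tags than 95.3% of the knockout list, and lay 268 bp from the control summit. Of the 10427 control domains with a knockout peak, 667 held 3 or more (1.82% of the whole control list), and 2 of them were in this cluster. One of these was the widest domain of the region, and the part of width was not tested.

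The last part of the block had strong control domains with a single knockout peak each. The domain from 153578556 to 153587984 held 2096 control tags over 9429 bp, and its knockout peak, from 153579480 to 153579779 with 529 tags, lay near its edge, 5775 bp from the control summit. The domain from 153595667 to 153604160 held 1027 control tags, with a knockout peak of 137 tags from 153599502 to 153599801, only 37 bp from the control summit. The last domain, from 153604525 to 153609810, held 1367 control tags and a knockout peak of 559 tags from 153607341 to 153607815. It began 364 bp after the one before. Control peaks of 137 tags (153544308 to 153548787) and 99 tags (153588208 to 153591335), at false discovery rates of 14.75% and 6.01%, held none.

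Tags of all knockout peaks in a domain were summed and set against the domain's control tags as log2 of knockout over control, adding 1 tag to each, and the median of all 10427 control domains with a knockout peak (-0.33) was subtracted. More than 2-fold higher in the knockout were 2 of the 9 domains, against 25.1% of all domains, and more than 2-fold lower were 2, against 26.7%. These counts are near the background. With tags divided by the library totals and no centring, 3 were higher and 1 lower, and per kb of peak width 2 were higher and 1 lower, so the balance depends on the scale. The knockout and control peaks were called separately and differ in width, so a ratio compares tags within called peaks and not the same bases.

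The higher pair were the weak domain of the middle from 152138941, with 760 knockout against 164 control tags and a ratio of 2.54 (binomial 95% interval 2.30 to 2.80), and the domain of the S100A cluster from 153535692, with 2686 against 697 tags and a ratio of 2.28 (2.16 to 2.40). Per kb of peak width these ratios were 2.83 for the domain from 152138941 and 1.16 for the domain from 153535692, and by library totals they were 3.26 for the first and 2.996 for the second. The lower pair were both in the S100A cluster. The domain from 153595667 had 137 knockout against 1027 control tags and a ratio of -2.56 (-2.84 to -2.32), which was -1.01 per kb of peak width and -1.85 by library totals. The domain from 153578556 had 529 against 2096 tags and a ratio of -1.65 (-1.79 to -1.52), which was 0.0499 per kb of peak width and -0.93 by library totals. Its direction thus depended on the widths, and the size of the other 3 ratios did too.

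The other 5 ratios lay between -0.96 and 0.85. The domain with the highest knockout peak, from 151958434, had 4579 knockout and 3193 control tags and a ratio of 0.85 (0.79 to 0.92), and 71.6% of all such domains were lower. Per kb of peak width its ratio was -0.50, and by library totals 1.57. Its neighbour from 152003554, with 1185 against 1830 tags, had a ratio of -0.29 (-0.40 to -0.19), which was 0.42 with tags divided by the library totals. The domain of 18842 bp, with 1493 against 2858 tags, had a ratio of -0.60 (-0.70 to -0.51), which was 0.11 by library totals. The domain of the middle from 152081314, with 390 against 959 tags, and the last of the S100A cluster, with 559 against 1367, both had a ratio of -0.96, and both were -0.24 by library totals. For the first 3 of these domains the sign depended on the scale, and no direction is given.

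**Figure D5:**
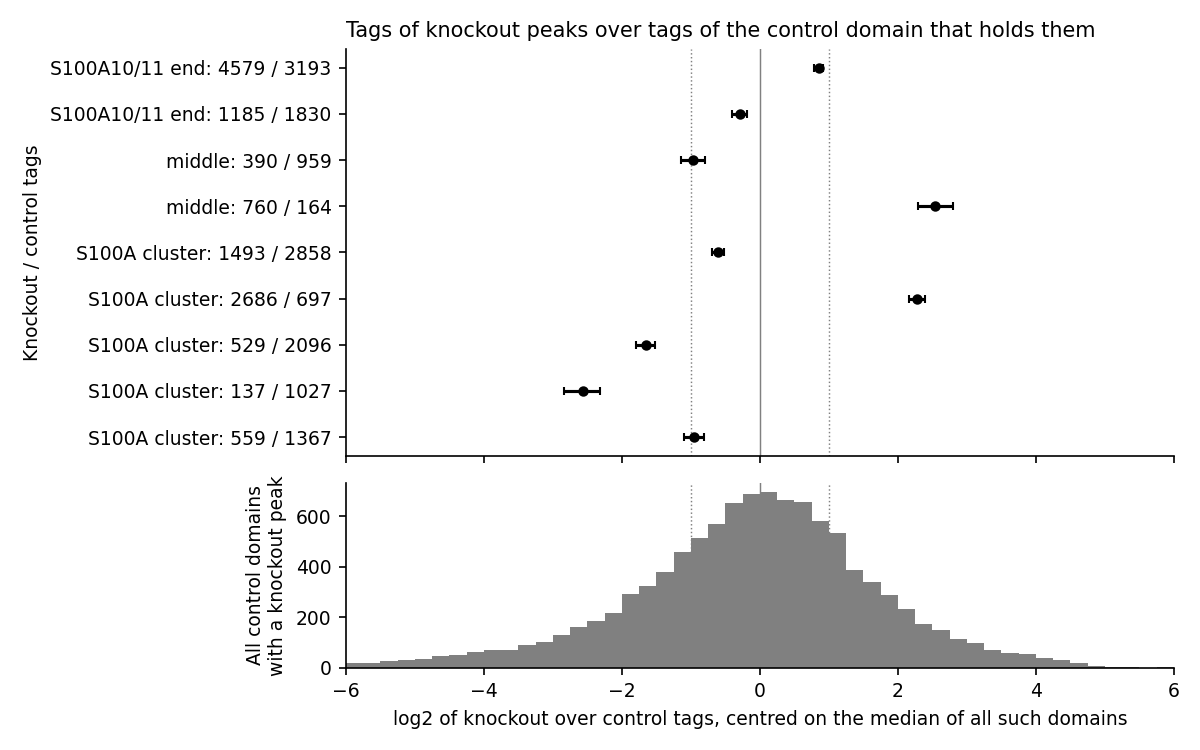
Top, log2 of summed knockout tags over control tags for the 9 control domains of the region with a knockout peak, centred on the median of all such domains, with binomial 95% intervals. Labels give the stretch and the knockout and control tags. Bottom, the number of all 10427 such domains by the same ratio. Dotted lines mark a 2-fold difference, and 4 of the 9 domains lie beyond them, 2 on each side.

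A subset of these, the 4 domains that held a single knockout peak which met no other domain, could be compared pair by pair, centred on the median of the 7552 such pairs. The ratio was above 1 for 1 pair, against 28.7% of all pairs, and below -1 for 2, against 28.9%. The values were 2.66 (2.42 to 2.92) for the pair from 152138941, -1.53 (-1.67 to -1.39) from 153578556 (-0.08 per kb of width), -2.44 (-2.72 to -2.19) from 153595667 (-1.14 per kb of width) and -0.83 (-0.98 to -0.69) from 153604525. Over all 7552 pairs the SD was 1.96.

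The distance between knockout and control summits inside the control domains was also measured. Its median was 1407 bp for the 16 knockout peaks, with a range of 37 to 10805 bp, against 568 bp for the whole list. Of the 16 summits, 4 lay within 500 bp (25.0%, exact Clopper-Pearson 95% interval 7.27 to 52.4%), against 46.0% in the whole list, which lies within that interval. Of the 16, 9 lay at a lower position than the control summit and 7 at a higher one. The 16 knockout peaks lie in 9 control domains and are not independent, so no deficit is read from the 25.0%. Several peaks in a domain cannot all lie at its summit. The control domains with a knockout peak had a median width of 8494 bp here, against 5464 bp in the whole list. The parts of width and of several peaks per domain in these distances were not tested.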

How the data were processed

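H3K4me3 chromatin immunoprecipitation and input libraries were grouped by their titles. Per the submitters' processing notes, hg19, MACS 1.4.3 and Bowtie2 2.2.4 were used. Per the file headers, reads went through cutadapt, and peaks were called per genotype on its IP with its own input as background, at a p cutoff of 0.0001, a fragment length of 300 bp and local backgrounds of 1000 and 10000 bp, scaling the larger library down, so fold enrichments differ in scale between the lists. The deposited tag counts are whole IP tags per peak, not normalized. A deposited score (the MACS p on a negative log10 scale, multiplied by 10), the deposited fold enrichment (a ratio of IP tags to local background) and the deposited false discovery rate in percent are the authors' own values per peak. The score column had lost its name and was known by its place and its minimum of 40. Fold enrichments were not used. Positions and widths in bp are other deposited values.

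Overlaps of at least 1 bp were counted with pandas 2.3.3, numpy 2.4.6 and scipy 1.17.1 under Python 3.11.15, checked against bedtools 2.31.1, and the ratio step was tested on simulated data. Figures were drawn with matplotlib 3.10.9. Intervals are exact Clopper-Pearson, Poisson or binomial at 95%, and a count of 0 allows up to 3 counts. The sources used here mention neither molecular identifiers nor removal of duplicates, so copies of 1 fragment may count as separate tags. Knockout peaks of the region held 71 to 3558 tags per kb of width, and control peaks 31 to 311. The part of copies in these densities and in the ratios was not tested. The Poisson and binomial intervals take each tag as a separate fragment, so they would be too narrow where tags are copies. The region, its gene lists and the rule for named peaks were chosen with earlier results of these data known. The rule names up to 8 peaks with the most tags per stretch and list, the widest, every single match and the strongest unmatched peak. Peaks outside it were added after their values were seen. The sums of knockout tags per domain and the promoter counts were added after seeing the data. Only tags and positions entered the ratios, and no p-value was computed.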

Additional observations from a re-analysis of the deposited data

How the results depend on the processing

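With a false discovery rate of 1% or less, the control list had 12 peaks in the region (3 at the S100A10 and S100A11 end, 4 in the middle and 5 in the S100A cluster), with a median width of 7542.5 bp and 17040 tags, and 66.7% of them held a knockout peak. With a MACS p of 1e-10 or less the control list had 17 peaks in the region (4, 6 and 7 in the same order). They had a median width of 5792 bp and 17721 tags, and 52.9% of them held a knockout peak. With only knockout peaks wider than 300 bp there were 9 knockout peaks (2, 3 and 4 in the same order), with a median width of 466 bp, 9678 tags and 6376 bp covered. When an overlap of 50% of the peak was asked for, 0% of the control peaks were met by the knockout list, which follows from their widths. Only 1 single-match pair, and 1 domain, was more than 2-fold lower with tags divided by the library totals and also per kb of width, in place of 2, while 3 domains in place of 2 were higher by library totals. The domain from 153578556 had a ratio of 0.0499 per kb of width in place of -1.65. These shifts come from fewer peaks or from the scale, and no other cause was tested. Placing peaks by summit, merging peaks within 1 kb, neighbours within 1 kb and a pseudocount of 10 left every count, width, share and ratio they bear on within 1.5 times or within its interval. No paired analysis was possible because each genotype has 1 IP library. Alternatives for the summed tags per domain were chosen after seeing the data. With 1 library per genotype, the spread between replicates is unknown.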
